A study of Mus musculus with 6 samples.

Results

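The Ikaros family transcription factors were examined as the genes named Ikzf1, Ikzf2, Ikzf3, Ikzf4 and Ikzf5, which are 5 of the 54532 genes in the table of transcript levels. They were found by gene name alone, and each name matched 1 gene. The libraries came from bone marrow cells of C57BL/6 mice taken at day 100 after transplantation, and their RNA was read in 3 libraries labelled Phf6 wild type (WT) and 3 labelled Phf6 knockout (KO). Both groups carried JAK3 M511I, an activated form of the cytokine receptor kinase JAK3, delivered by a retrovirus that also encodes GFP to Lin- bone marrow cells of male donors. In the study's methods the WT donors were Phf6 fl/y and the KO donors were Vav1-Cre;Phf6 fl/y. The Vav1 promoter drives Cre in blood-forming cells in general and not in T cells alone, and the recipients were irradiated mice whose own cells may remain in the marrow. Whether the cells were sorted for GFP before RNA was extracted is not given in the sources used here. In the genotype labels, 2 of the 6 libraries name Phf6 and 4 name another Phf number, which was read as Phf6 from the design text.

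Ikaros family proteins are zinc finger transcription factors that steer lymphocyte development. A group of fingers near the amino end binds DNA, and a second group near the carboxyl end joins the members to each other as homodimers and heterodimers. Ikaros (Ikzf1) acts throughout blood formation and is lost or mutated in acute lymphoblastic leukaemia. Helios (Ikzf2) is found mainly in early T lineage cells, some stem cells and regulatory T cells. Aiolos (Ikzf3) acts in mature B cells and in T cells, Eos (Ikzf4) works with Foxp3 in regulatory T cells, and Pegasus (Ikzf5) is the most divergent member.

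The coding DNA of 1 DNA-binding finger is shown for each member, because it is what makes them a family and what a short read would have to tell apart. The sequences were read from the GENCODE transcripts of the GRCm38 build, 5′ to 3′ on the coding strand. Capitals mark the codons of the paired cysteines and histidines that hold the zinc ion. The finger shown is number 2 from the amino end, except that for Ikzf5 it is number 1, the one most alike to the others.
Ikzf1, chr11:11754024-11754086, plus strand, exon 6: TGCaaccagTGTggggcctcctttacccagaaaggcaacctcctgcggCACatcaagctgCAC
Ikzf2, chr1:69570581-69570643, minus strand, exon 5: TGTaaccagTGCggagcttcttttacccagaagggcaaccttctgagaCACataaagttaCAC
Ikzf3, chr11:98488940-98489002, minus strand, exon 5: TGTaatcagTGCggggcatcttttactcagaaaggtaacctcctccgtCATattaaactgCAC
Ikzf4, chr10:128640229-128640291, minus strand, exon 5: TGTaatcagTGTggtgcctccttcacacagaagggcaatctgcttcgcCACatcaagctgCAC
Ikzf5, chr7:131393759-131393821, minus strand, exon 3: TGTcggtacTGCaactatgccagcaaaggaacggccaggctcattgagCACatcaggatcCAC

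Ikzf1, Ikzf2, Ikzf3 and Ikzf4 encode the same residue at all 21 codons of this finger, while 48 to 53 of its 63 bases are identical between any pair of them. Ikzf5 matches the others at 6 of the 21 codons and at 25 to 32 of the bases. Across the whole transcripts, the longest exact stretch shared by any pair of members was 32 bases, between Ikzf2 and Ikzf4. Ikzf1 to Ikzf4 are thus alike in the protein they place on DNA at this finger and yet distinct in the bases that were read.

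Before the members were compared, the labels and the libraries were checked. Phf6, the deleted gene, stood at 7.47, 3.67 and 8.02 FPKM (fragments per kilobase of gene, scaled to a library size) in the libraries labelled WT and at 6.73, 5.50 and 5.11 FPKM in those labelled KO. The overlap came from WT 2: the other WT libraries lay above all KO libraries. The level of Phf6 over the whole gene, which also counts exons outside the deleted part, thus did not separate all 6 libraries by label, and WT and KO are used below only as the libraries are labelled. Of the genes that mark male cells, Ddx3y was at 22.9 to 47.02 FPKM in all 6 libraries and Xist, which marks female cells, at 0.083 FPKM or less. Another Y-linked gene, Eif2s3y, was at 19.9 to 35.1 FPKM in WT and at 0.164 FPKM or less in KO. Depth was 13015823 to 18235095 fragments per library. The library size behind the FPKM was 1.01 to 1.21 times these fragments in 5 libraries and 0.645 times in WT 2. Library WT 2 stood apart, with a correlation over genes of 0.746 to 0.779 with the other WT libraries, against 0.948 between those. In WT 2 genes of 5000 to 12000 bases, the range that holds all members, took 17.98% of fragments, against 38.3% to 41.8% in each other library. Values without WT 2 are therefore given beside those of the members.

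Ikzf2 was the only member past the threshold of an adjusted p under 0.05. Its transcript rose in the libraries labelled KO, from under 2 FPKM in each WT library to about 10 FPKM. Ikzf1 was the most abundant member and Ikzf3 came after it in every library, and neither was past the threshold. Ikzf4 and Ikzf5 stayed near or under 1 FPKM. A filter of at least 1 FPKM in at least 3 of the 6 libraries passed 3 members, Ikzf1, Ikzf2 and Ikzf3. With limma on log2(FPKM + 1), fitted over all 13393 genes that passed, 1 of these 3 had an adjusted p under 0.05, and 26.4% of all genes tested did. That member was higher in KO, as were 13.1% of all genes tested, and 13.3% were lower. For Ikzf2 the 3 KO libraries met the filter by themselves, and of the WT libraries only WT 3 reached 1 FPKM. Ikzf2 was thus tested through the group where it is high, so the count of 1 in 3 is not independent of the filter.

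Ikzf2 (ENSMUSG00000025997, chr1:69531214-69687245, minus strand) was at 0.876, 0.190 and 1.71 FPKM in WT 1, WT 2 and WT 3. It was at 13.01, 10.1 and 9.61 FPKM in KO 1, KO 2 and KO 3. Every KO library lay above every WT library, and the lowest KO value was several times the highest WT value. The means were 0.926 ± 0.762 FPKM in WT and 10.9 ± 1.85 FPKM in KO (SD, n = 3 each), a ratio of 11.8, or 8.42 without WT 2. The log2 fold change of FPKM + 1 was 2.70 with SE 0.35 and an adjusted p of 0.00271 (limma, Benjamini-Hochberg, two-sided), with a 95% interval of 1.85 to 3.54. Without WT 2 it was 2.39, with an adjusted p of 0.000660. Behind these values were 157, 26 and 308 fragments in WT and 2815, 1840 and 1796 in KO, so WT 2 rests on the fewest. FPKM values that do not overlap between the groups were common, at 49.1% of all genes tested. A permutation test of 3 libraries against 3 cannot go below an exact p of 0.1, so none is given for single genes.

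Ikzf1 (ENSMUSG00000018654, chr11:11685003-11772926, plus strand) was at 108, 42.3 and 112 FPKM in WT and at 151, 94.7 and 103 FPKM in KO. The groups overlapped, and the lowest of all 6 values was that of WT 2. The means were 87.2 ± 39.0 and 116 ± 30.3 FPKM (SD, n = 3 each). The log2 fold change was 0.50 with SE 0.46 and an adjusted p of 0.471 (limma), and its 95% interval ran from -0.59 to 1.60, so changes of that size in either direction were not distinguished. Without WT 2 it was 0.053, with an adjusted p of 0.854.

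Ikzf3 (ENSMUSG00000018168, chr11:98464902-98546031, minus strand) was at 23.5, 8.02 and 29.3 FPKM in WT and at 26.6, 18.8 and 21.0 FPKM in KO. Here too the groups overlapped and WT 2 was the lowest. The means were 20.3 ± 11.01 and 22.1 ± 4.03 FPKM (SD, n = 3 each). The log2 fold change was 0.28 with SE 0.48 and an adjusted p of 0.715 (limma), with a 95% interval of -0.87 to 1.44. Its sign rested on WT 2: without that library it was -0.25, with an adjusted p of 0.306.

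Ikzf4 (ENSMUSG00000002578, chr10:128630843-128645991, minus strand) was at 0.0540, 0.114 and 0.129 FPKM in WT, from 5, 8 and 12 fragments. It was at 0.188, 0.265 and 0.601 FPKM in KO, from 21, 25 and 58 fragments. The KO values all lay above the WT values, at levels under the filter in every library. In a fit with no filter, over 28116 genes, the log2 fold change of FPKM + 1 was 0.29 with SE 0.12 and an adjusted p of 0.200 (limma). The ratio of the KO mean to the WT mean was 3.55, or 3.84 without WT 2.

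Ikzf5 (ENSMUSG00000040167, chr7:131388652-131410521, minus strand) was at 0.691, 1.28 and 0.733 FPKM in WT and at 0.619, 0.788 and 0.597 FPKM in KO. The groups overlapped, and only WT 2 exceeded 1 FPKM. With no filter the log2 fold change was -0.18 with SE 0.21 and an adjusted p of 0.601 (limma). The ratio of the KO mean to the WT mean was 0.742, or 0.939 without WT 2.

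**Figure D1:**
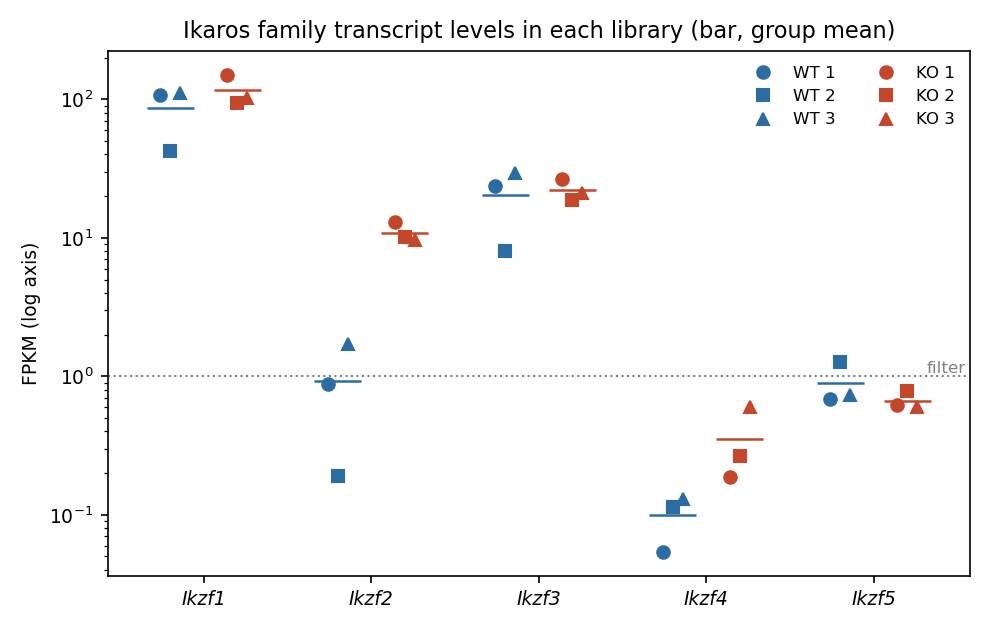
FPKM of each Ikaros family gene (log axis) in the 3 libraries labelled WT (blue) and the 3 labelled KO (red), with the group mean as a bar and the filter at 1 FPKM as a dotted line. Ikzf2 is at 0.190 to 1.71 in WT and 9.61 to 13.01 in KO, while for Ikzf1 and Ikzf3 the groups overlap and WT 2 (blue square) is the lowest point.

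Genes that overlap the members were looked up, since the use of strand in the counting is not given in the sources used here and reads from opposite strands could then not be told apart. Ikzf1 holds the antisense gene Gm12000, at up to 18.8 FPKM. The antisense gene at Ikzf2, Gm29114, reached 0.321 FPKM at most, far under the KO level of Ikzf2. Ikzf5 overlaps Pstk on the opposite strand, which reached 3.18 FPKM and was higher than Ikzf5 in every library, so the Ikzf5 values are uncertain.

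FPKM is per length, so the members can also be ranked within a library. The order in KO 1 and KO 2 was Ikzf1, Ikzf3, Ikzf2, Ikzf5 and Ikzf4, and in KO 3 the last pair stood level at 0.601 FPKM for Ikzf4 and 0.597 FPKM for Ikzf5. In WT 1 and WT 3 Ikzf2 lay above Ikzf5, and in WT 2 it lay under it, so the order of these neighbours was not the same in all WT libraries. Ikzf1 made up 76.0% to 81.5% of the summed FPKM of the family in all 6 libraries, and Ikzf3 made up 13.9% to 20.4%. Ikzf2 made up 0.367% to 1.19% of it in WT and 6.80% to 8.08% in KO. Among protein-coding genes above 0, Ikzf1 stood at the 88.8 to 98.9 percentile of its library. Ikzf2 stood at the 12.2 to 36.6 percentile in WT and at the 65.3 to 73.6 percentile in KO, so that it moved from the lower part of the range to the upper part.

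The ratio of Helios to Ikaros is of interest because the proteins form mixed dimers, and a ratio within a library does not depend on how that library was scaled. It can still depend on gene length, which is 11613 bases for Ikzf2 and 5777 for Ikzf1. The part of length in the ratio, as in WT 2, was not tested. Ikzf1 transcripts exceeded Ikzf2 transcripts 123-fold, 222-fold and 65.3-fold in WT and 11.6-fold, 9.41-fold and 10.7-fold in KO. On the log2 scale Ikzf2 over Ikzf1 was -6.92 ± 0.88 in WT and -3.40 ± 0.15 in KO (SD, n = 3 each), a difference of 3.52, or 3.09 without WT 2. The groups did not overlap. Ikzf3 over Ikzf1 was -2.17 ± 0.24 in WT and -2.38 ± 0.11 in KO (SD, n = 3 each), and those groups overlapped. The difference of -0.20 became -0.31 without WT 2, and the other WT libraries, at -2.19 and -1.93, then lay above all KO libraries, at -2.50 to -2.29.

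Bulk libraries cannot tell fewer cells of a type from less RNA per cell, so the members were also set against Cd3e, a chain of the T cell receptor complex that T cells share. Cd3e was at 42.7, 22.6 and 60.03 FPKM in WT and at 56.8, 44.5 and 53.7 FPKM in KO, and the groups overlapped. Ikzf2 over Cd3e was 0.0205, 0.00843 and 0.0285 in WT and 0.229, 0.226 and 0.179 in KO, so that it stood apart here as well. Ikzf1 over Cd3e was 1.86 to 2.52 in WT and 1.92 to 2.66 in KO. Ikzf3 over Cd3e was 0.551, 0.355 and 0.488 in WT and 0.468, 0.421 and 0.392 in KO, where the overlap again came from WT 2. The place of WT 2 depended on the chain chosen, as seen with Cd3d and Cd3g, which were added after the values were known. Cd3d was at 89.8, 561 and 109 FPKM in WT and at 156, 127 and 115 FPKM in KO. Ikzf1 over Cd3d was 1.198, 0.0753 and 1.03 in WT and 0.969, 0.746 and 0.897 in KO, so that WT 2 lay far below all others and the overlap came from it. Ikzf2 over Cd3d was 0.00975, 0.000339 and 0.0158 in WT and 0.0836, 0.0793 and 0.0836 in KO. Over Cd3g it was 0.0207, 0.00121 and 0.0333 in WT and 0.164, 0.148 and 0.153 in KO. Ikzf2 was higher in each KO library than in each WT library over all 3 chains. Ikzf3 over Cd3d was 0.262, 0.0143 and 0.27 in WT and 0.171, 0.148 and 0.183 in KO, and here too the overlap came from WT 2. Over Cd3g, Ikzf1 was 2.55, 0.268 and 2.17 in WT and 1.90, 1.39 and 1.65 in KO. Ikzf3 over Cd3g was 0.557, 0.0508 and 0.570 in WT and 0.335, 0.275 and 0.336 in KO. With WT 2 left out, Ikzf1 and Ikzf3 were lower in every KO library over Cd3d and Cd3g. Over Cd3e this held for Ikzf3 but not for Ikzf1.

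**Figure D2:**
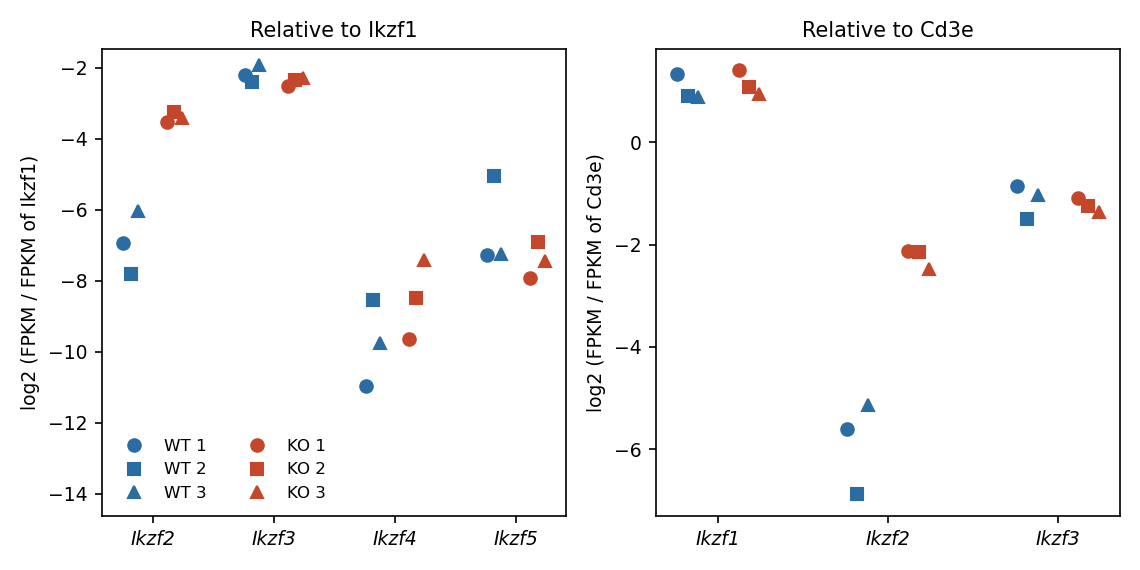
Log2 ratio of member FPKM to Ikzf1 FPKM (left) and to Cd3e FPKM (right) in each library, blue for the WT label and red for the KO label. Ikzf2 over Ikzf1 averages -6.92 in WT and -3.40 in KO with no overlap, while Ikzf1 overlaps between the labels on the Cd3e scale and Ikzf3 overlaps through WT 2 (blue square).

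The place of WT 2 was also measured for each member. Relative to the mean of WT 1 and WT 3, WT 2 differed on the log2(FPKM + 1) scale by -1.35 for Ikzf1, -0.92 for Ikzf2, -1.60 for Ikzf3, 0.030 for Ikzf4 and 0.41 for Ikzf5. Over the 2908 genes tested whose length lies between the shortest and the longest member, the median of this difference was -0.61, with quartiles of -1.18 and -0.0014. On this scale Ikzf1 and Ikzf3 thus lay under the lower quartile, Ikzf2 within the quartiles and the scarce Ikzf4 and Ikzf5 above the upper one. The added 1 compresses differences between values near or under 1 FPKM, so the places of Ikzf2, Ikzf4 and Ikzf5 depend on the scale. In FPKM, Ikzf2 was at 0.190 in WT 2, against 0.876 in WT 1 and 1.71 in WT 3. The part of the WT 2 difference in the members' values was not tested beyond leaving WT 2 out.

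Across 18 other settings, among them other pseudocounts, scalings, sample weights, removal of a length trend and each library left out, Ikzf2 kept its direction and an adjusted p under 0.05 in all 18, at log2 fold changes of 2.39 to 3.89 (limma). Ikzf1 was never past the threshold, at 0.013 to 1.34, and nor was Ikzf3, at -0.25 to 1.10. The highest values of Ikzf1 and Ikzf3 came with rescaling to TPM, which moved the median of all genes tested by 0.77. Under that scaling Ikzf2 was at 3.84.

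**Figure D3:**
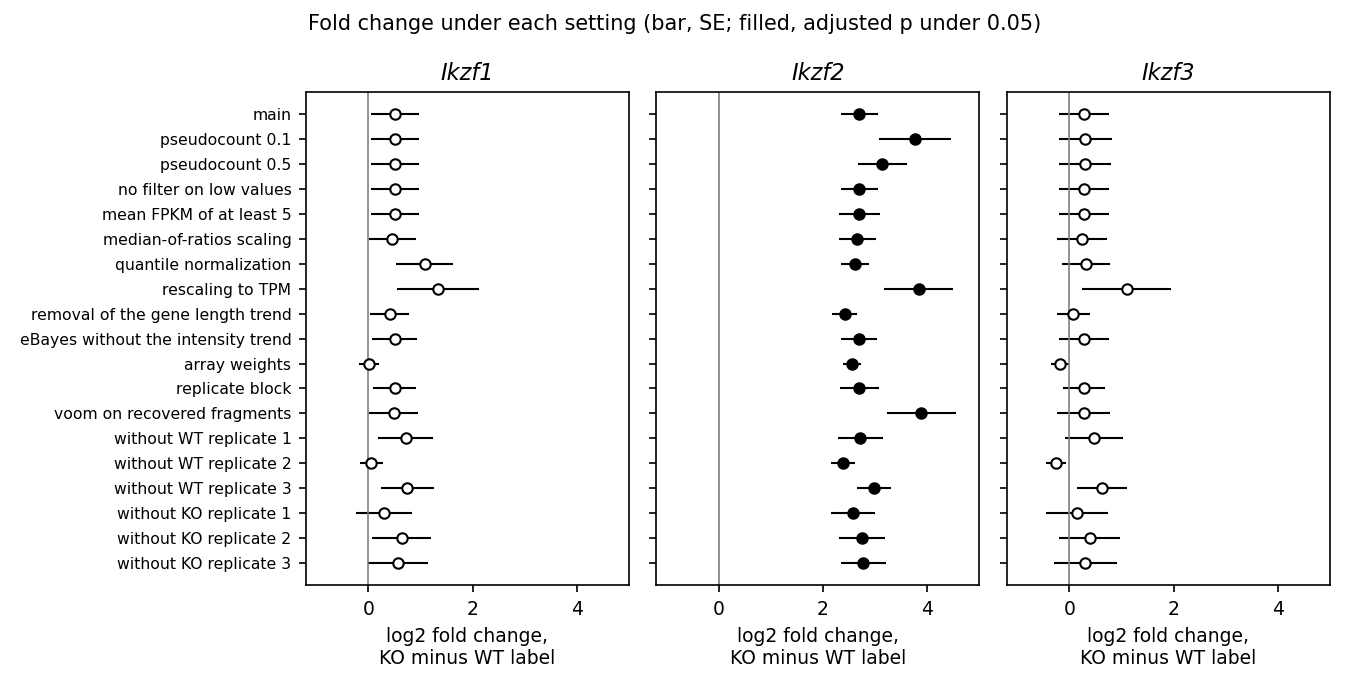
Log2 fold change of Ikzf1, Ikzf2 and Ikzf3, KO minus WT label, under the main setting and 18 alternatives, with SE as bars and filled points for an adjusted p under 0.05. The Ikzf2 points are all filled and lie between 2.39 and 3.89, while the points of the others are all open and Ikzf3 lies on both sides of 0.

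The genes most like each tested member across the 6 libraries were those with the smallest root mean square difference of centred log2(FPKM + 1). For Ikzf2 these were Camk4, a calcium and calmodulin dependent kinase, at 0.107, Dync2h1, the heavy chain of a dynein that works in cilia, at 0.160, and 4930539E08Rik at 0.188. Camk4 was at 3.83, 1.93 and 4.67 FPKM in WT and at 33.3, 27.1 and 26.7 FPKM in KO. For Ikzf1 the nearest were Fbxo11 at 0.063, Satb1, a chromatin organiser of thymocytes, at 0.077, and Hif1an at 0.082. For Ikzf3 they were Ppp1r9b at 0.068, Kdm3b at 0.074 and Scml4 at 0.082. These genes were picked for a like profile, so the patterns they share with the members follow from the selection. For the neighbours of Ikzf1 and Ikzf3 this is the low value in WT 2, and for those of Ikzf2 the high values in KO.

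Ikaros proteins repress and activate genes together with chromatin complexes, and the subunits of these were examined next. Of 17 genes of the NuRD complex and other corepressors 16 were tested, 3 rose and 2 fell, while 13.1% of all genes tested rose and 13.3% fell. The median log2 fold change was 0.40, against 0.086 over all genes tested. Chd3, a NuRD remodeller, fell from 57.2, 29.2 and 41.9 FPKM in WT to 0.916, 5.10 and 2.42 FPKM in KO, a log2 fold change of -3.63 with an adjusted p of 0.00280 (limma). Chd3 had fewer than 3 KO libraries at 1 FPKM, so it passed the filter only with its WT libraries, where it is high. Its relative Chd4 was at 35.5 to 58.4 FPKM in WT and 66.5 to 76.5 FPKM in KO, with a log2 fold change of 0.56 and an adjusted p of 0.212. It is named here after its values were seen. The deacetylase Hdac1 rose by 0.98, as did the histone-binding subunit Rbbp4, and Mta3 rose by 0.92, at adjusted p-values of 0.0197, 0.0402 and 0.0328. The 3 that rose became 6 without WT 2, and 0 without any 1 of the other libraries, while Chd3 was past the threshold in all 6 fits that leave out a library, at log2 fold changes of -4.04 to -3.21. The other gene that fell, Mbd2, was past it in 1 of those 6.

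Of 11 genes of the BAF remodelling complex, which slides nucleosomes and is found with Ikaros in T cells, all 11 were tested. Of these 3 rose and 2 fell, against 13.1% and 13.3% of all genes tested, and the median was 0.64. The core subunit Smarcc1 was at 9.04, 5.07 and 9.42 FPKM in WT and at 23.7, 23.9 and 28.8 FPKM in KO, a log2 fold change of 1.62 with an adjusted p of 0.00843 (limma). The ATPase Smarca2 was at 11.2, 2.88 and 13.4 FPKM in WT and at 0.342, 0.334 and 0.292 FPKM in KO, a log2 fold change of -2.73 with an adjusted p of 0.00948. Smarcd1 rose by 1.16 (adjusted p = 0.01998) and Arid1b had a log2 fold change of -1.64 (adjusted p = 0.0117). Smarca2 and Arid1b, the 2 that fell, had fewer than 3 KO libraries at 1 FPKM. They passed the filter only with their WT libraries, where they are high. The 3 that rose became 6 without WT 2, 1 without WT 1, KO 1 or KO 3 and 2 without WT 3 or KO 2. The 2 that fell became 1 without KO 2 or KO 3 and 3 without WT 2.

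Ikaros and Aiolos are controlled as proteins by casein kinase 2 and by protein phosphatase 1. In human cells the cereblon ubiquitin ligase acts on them when lenalidomide is bound to it. No such drug is named in the study's methods. Of 11 genes of these enzymes all were tested and none passed the threshold, with a median of 0.21 (limma). It was passed by 26.4% of all genes tested. The smallest p-value was that of Ppp1cc, a catalytic subunit of the phosphatase, at 66.3, 30.2 and 63.0 FPKM in WT and 89.7, 88.8 and 91.4 FPKM in KO (log2 fold change 0.83, adjusted p = 0.148). Cereblon (Crbn), named after its values were seen, was at 16.7, 2.24 and 20.7 FPKM in WT and at 12.99, 10.4 and 9.9995 FPKM in KO. The log2 fold change of Crbn was 0.17 (adjusted p = 0.889, limma), and its sign rested on WT 2, as it was -0.70 without that library. Without WT 2, 3 of the 11 rose and 1, Crbn, fell.

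Genes known to be bound or regulated by Ikaros were then set beside the family. The list was drawn up with earlier results of these data known, so its counts are a description. Of its 16 genes 13 were tested, 8 rose and 3 fell, with a median of 4.52. Among all genes tested, 13.1% rose and 13.3% fell. Hes1, Ptcra, Notch3, Dntt, Rag1 and Rag2 had fewer than 3 WT libraries at 1 FPKM. They passed the filter only with their KO libraries, where they are high, so their being tested already depended on the rise. Tbx21 and Ifng likewise had fewer than 3 KO libraries at 1 FPKM. Without any 1 library 7 to 9 rose and 3 fell. The 3 that did not pass the filter were Igll1 and Vpreb1, which encode the surrogate light chain of early B cells and reached 41.0 and 48.4 FPKM in WT 2 alone, and Il2, at no more than 0.340 FPKM.

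Genes of the Notch pathway were among those that rose. Hes1, a repressor induced by Notch, was at 0.954, 6.10 and 0.792 FPKM in WT and at 152, 88.4 and 79.3 FPKM in KO. Dtx1, another Notch target, was at 4.39, 11.98 and 5.33 FPKM in WT and at 235, 171 and 132 FPKM in KO. The receptor Notch3 was at 0.0483, 0.116 and 0.0321 FPKM in WT and at 162, 116 and 109 FPKM in KO. For these the adjusted p-values were 0.00170, 0.000783 and 0.000223 (limma).

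Genes of receptor assembly in early T cells rose as well. Ptcra, the pre-T cell receptor alpha chain, was listed at 0 in every WT library and at 161, 167 and 137 FPKM in KO. The recombinase gene Rag1 was at 0.0686, 1.71 and 0 FPKM in WT and at 392, 457 and 338 FPKM in KO. Its partner Rag2 was at 0, 1.09 and 0 FPKM in WT and at 9.52, 9.29 and 9.67 FPKM in KO. Dntt, which adds bases at receptor joints, was at 0.731, 26.6 and 0.121 FPKM in WT and at 86.7, 85.0 and 101 FPKM in KO. The rise of Dntt was past the threshold in only 1 of the 6 fits that leave out a library, with adjusted p-values up to 0.0988 (limma). WT 2 was the only WT library above 1 FPKM for Rag1, Rag2 and Dntt, and it was also the one with the surrogate light chain genes.

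The coreceptor gene Cd4 was at 1.45, 2.13 and 2.90 FPKM in WT and at 98.4, 95.3 and 50.5 FPKM in KO (adjusted p = 0.000415, limma). Cd8a was at 189, 101 and 208 FPKM in WT and at 321, 272 and 207 FPKM in KO, and the groups overlapped. Myc, at 30.4, 45.1 and 53.3 FPKM in WT and at 64.8, 79.1 and 126 FPKM in KO, was not past the threshold, with an adjusted p of 0.0838. The remaining tested genes of the list fell. Il7r, the interleukin 7 receptor, fell from 219, 73.8 and 227 FPKM in WT to 16.8, 24.7 and 23.3 FPKM in KO. Tbx21, which encodes the T-bet factor of type 1 responses, fell from 36.8, 37.2 and 53.5 FPKM to 0.863, 2.30 and 2.35 FPKM. Ifng, the cytokine under T-bet, fell from 13.2, 59.1 and 24.5 FPKM to 0.539, 1.81 and 1.68 FPKM. The adjusted p-values of the 3 were 0.00757, 0.000553 and 0.00497 (limma).

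**Figure D4:**
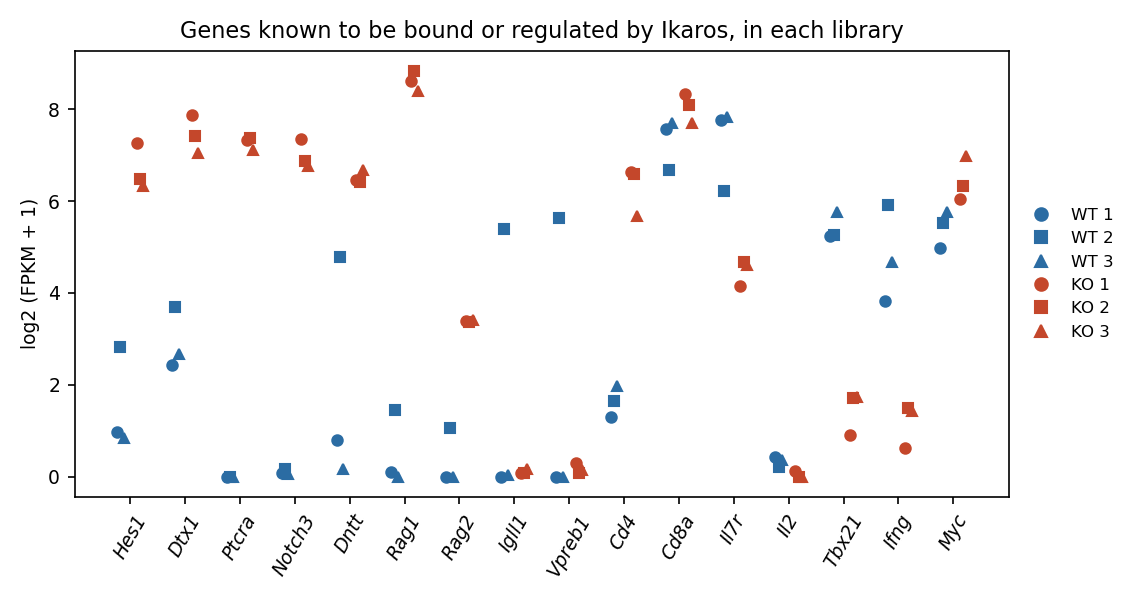
Log2(FPKM + 1) of the 16 genes known to be bound or regulated by Ikaros, in each WT (blue) and KO (red) library. Hes1, Dtx1, Ptcra, Notch3, Dntt, Rag1, Rag2 and Cd4 lie higher in every KO library, Il7r, Tbx21 and Ifng lie lower, and Igll1 and Vpreb1 are high in WT 2 (blue square) alone.

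The core of the Ikaros binding motif, GGGAA, was searched for on both strands of the 300 bases around each start site in the RefSeq promoters of the GRCm38 build. Of the 16 genes of that list 13 had a promoter entry, and 8 of these 13 (61.5%) held the letters, against 62.7% of all 32851 promoters. Of the members, Ikzf1 and Ikzf5 had entries. The core is short and common, and a match is a description of the letters alone.

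Helios also marks regulatory T cells, so their markers were set beside Ikzf2. Foxp3, the factor that defines these cells, was at 0.861, 0.533 and 1.62 FPKM in WT and at 0.404, 0.446 and 0.420 FPKM in KO, under the filter. Each KO value of Foxp3 lay below each WT value, the opposite order to Ikzf2. Of the 8 markers 7 were tested, 5 rose and 1 fell, with a median of 1.43, and without any 1 library 4 or 5 rose. The shares over all genes tested were 13.1% higher and 13.3% lower. Ctla4, an inhibitory receptor, was at 29.5, 18.1 and 40.6 FPKM in WT and at 167, 91.7 and 125 FPKM in KO (adjusted p = 0.00947, limma). The others that rose, Nrp1, Gpr83, Lrrc32 and Il10, and Tnfrsf18, which fell, are named after their values were seen. Nrp1, Gpr83, Lrrc32 and Il10 had fewer than 3 WT libraries at 1 FPKM, so they passed the filter only with KO, where they are high.

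Markers of other cells of the marrow moved with the labels. Over all genes tested 13.1% were higher in KO and 13.3% lower, the background for these lists and those of the next paragraph. Some of the genes that fell passed the filter only with their WT libraries, where they are high. All 12 neutrophil genes fell, and their summed FPKM was 6855 to 95430 in WT and 93.7 to 290 in KO. S100a8 was at 8503, 33166 and 1725 FPKM in WT and at 21.9, 67.1 and 77.1 FPKM in KO. Of 8 tested monocyte and macrophage genes 7 fell (sums 656 to 5126 and 18.7 to 30.6). Of 7 tested NK cell genes 6 fell and 1, Gzma, rose (sums 743 to 1299 and 581 to 649). Gzma, a granule protease, held most of the KO sum, at 566 to 615 FPKM. The other NK cell genes summed to 730 to 1248 FPKM in WT and 14.7 to 33.1 FPKM in KO. Whether the RNA of this list came from NK cells or from T cells was not tested. Gzma is named after its values were seen. The medians of these lists were -6.70, -3.38 and -4.47. In the B cell list 1 of 6 fell, with a median of -2.87, and without WT 2, 4 fell and 1 rose. Without any 1 of the KO libraries none fell. Its sums were 15.2 to 1266 in WT and 3.17 to 3.79 in KO.

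Of 10 T cell genes 1 fell and none rose, with a median of -0.25 and sums of 933 to 2096 in WT and 1109 to 1206 in KO. Without WT 2, 3 rose and 3 fell, and without WT 3, KO 2 or KO 3 none fell. None of 6 erythroid, 3 megakaryocyte and 1 stem cell genes tested passed, with medians of -3.03, -2.45 and 1.48. Without WT 2, 1 erythroid gene rose, 3 erythroid genes fell and 2 megakaryocyte genes fell, without WT 1, 3 erythroid genes fell and the stem cell gene rose, and without WT 3, 1 megakaryocyte gene fell. The sums of these 3 lists were 120 to 58687, 7.15 to 61.6 and 1.68 to 20.2 in WT, the highest each time in WT 2. In KO they were 15.5 to 111, 1.28 to 1.91 and 3.35 to 8.53. Ikzf2 was lowest in WT 2, the library with the highest neutrophil, erythroid and B cell sums. Among the WT libraries it was highest in WT 3, which had the lowest neutrophil sum, 6855. The erythroid and B cell sums were instead lowest in WT 1, at 120 and 15.2, so those lists did not follow that order. The part of these cells in the members' levels was not tested.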

How the data were processed

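RNA was read in 6 bone marrow libraries, 3 labelled WT and 3 labelled KO, grouped by the submitters' labels. The authors extracted RNA with Trizol and prepared the libraries. The submitters' processing notes name HISAT2 2.0.5, featureCounts 1.5.0-p3 and the GRCm38 (mm10) build. The deposited values are FPKM, fragments per kilobase of gene scaled to a library size, set by the authors from gene counts. The study's count model was not applied. The main fit was planned for the deposited unit, FPKM, and a voom fit on fragments recovered from the FPKM was 1 of the alternatives.

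Here limma 3.58.1 (R 4.3.3) was fitted to log2(FPKM + 1) for the 13393 genes with at least 1 FPKM in at least 3 libraries, KO minus WT, with an intensity trend in the variance, two-sided, with Benjamini-Hochberg adjustment and a threshold of 0.05. A fold change on this scale understates that of low genes. FPKM times gene length gave whole fragments for all values (tolerance 0.02), from which depth was taken, 13015823 to 18235095 fragments per library. The size used for FPKM was 0.645 times the fragments in WT 2 and 1.01 to 1.21 times elsewhere. Tables were handled in Python 3.11.15. The fit was tested on simulated data. Whether libraries came from separate mice is not given in the labels, so p-values measure the spread between these libraries, which may be technical.

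The members, gene lists and tests were chosen with earlier results of these data known. Named genes are the 5 members, Phf6, the genes of the Ikaros-regulated list, up to 4 of each other pathway list by p-value, the first 2 of each marker list and the 3 protein-coding genes nearest each tested member. Alternatives changed 1 choice at a time.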

Additional observations from a re-analysis of the deposited data

How the results depend on the processing

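Ikzf3 changed sign with array weights, at a log2 fold change of -0.18, and ranged from -0.25 to 0.62 with each library left out in turn, the lowest without WT 2. The cause was not tested. The numbers of genes higher and lower in KO, 1754 and 1785, were 786 and 1051 with a mean of at least 5 FPKM, where 8296 genes were tested, and 4388 and 4073 with array weights, which gave WT 2 a weight of 0.0509. With each library left out they were 938 to 3584 and 996 to 3383, the highest without WT 2. Rescaling to TPM left 1081 genes lower and made 67.8% of calls higher, against 49.6%, with a shift of 0.77 in the median of all genes. Replicate numbers were not taken as pairs, since libraries with the same number deviated with correlations of 0.0954, 0.105 and -0.153. With the replicate number as a block, Ikzf1, Ikzf2 and Ikzf3 were at 0.50, 2.70 and 0.28 with adjusted p-values of 0.449, 0.0108 and 0.671, and 1207 genes were higher and 1469 lower. The block left 0 higher and 1 lower gene in the NuRD list and 1 higher gene in the BAF list. Depth limits Ikzf4, which rests on 5 to 58 fragments.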
